A study of Mus musculus with 15 samples.

Results

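The primary granule genes of myeloid progenitors were followed across the 4 genotypes of the study. They are Mpo, Elane, Prtn3 and Ctsg, which encode proteins stored in the azurophil granule, and Ms4a3, a membrane protein gene transcribed in the same progenitors. They are 5 genes of 45706 in the count table, listed by name and found by their Ensembl identifiers, and all 5 passed the filter on low counts with 18983 genes tested. RNA came from lineage-negative bone marrow cells of secondary recipients, at the end of serial transplantation of stem and progenitor (LSK) cells, which the study ran for 16 weeks or until signs of disease. WT libraries (n = 3) and Puma-/- libraries (n = 4) are telomerase-proficient, and Puma-/- cells lack PUMA (the Bbc3 gene), a BH3-only protein that triggers mitochondrial apoptosis. G3 mTerc-/-Puma+/+ libraries (n = 4) derive from the third generation of mice without the telomerase RNA, whose telomeres are short, and G3 mTerc-/-Puma-/- libraries (n = 4) carry both deletions. Donors were CD45.2 C57BL/6J mice and all recipients were lethally irradiated CD45.1 mice. Lineage-positive cells were removed with magnetic beads and no sort for donor CD45.2 cells is stated for these libraries, so that host cells may remain. The labels do not say that each library is a separate recipient, so p-values measure only the spread between libraries.

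Azurophil granules are the first granules made in the neutrophil lineage. Their proteins are transcribed in granulocyte-monocyte progenitors and promyelocytes, and transcription stops as the cells mature to myelocytes, when secondary granule genes such as Ltf take over. Myeloperoxidase makes hypochlorous acid from hydrogen peroxide, and neutrophil elastase, proteinase 3 and cathepsin G are serine proteases that are activated by cathepsin C and packed on the proteoglycan serglycin. C/EBP factors, Spi1, Myb, Runx1 and Gfi1 are known regulators of this programme.

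Each library held between 102790519 and 158367059 counts. Terc had 7 to 17 counts in WT, 4 to 11 in Puma-/- and 0 or 1 in every mTerc-/- library. Bbc3 was at 4.80 to 7.28 CPM (counts scaled to library size) in Puma-/- libraries, below the 9.65 to 22.1 of WT. It was at 13.6 to 17.2 CPM in the G3 mTerc-/-Puma-/- libraries, within the WT range and against the label. They are called the double-labelled libraries from here on, and any direction drawn from them rests on that label. Xist was at 444 to 926 CPM in Puma-/- libraries and at 90.1 or less in G3 mTerc-/-Puma+/+ libraries, so that this RNA of female cells was not balanced between genotypes. Replicate 2 of the double-labelled libraries was not drawn in the study's heatmaps and was left out of the fit of 14 libraries. Its values are given beside the others. Of the progenitor markers, Kit (111 to 173 CPM) and Cd34 (91.7 to 245 CPM) were present in all 15 libraries, and Ly6g, which marks mature neutrophils, was at 2.18 CPM or less.

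The 5 genes lie at 4 places of the genome (GRCm38, GENCODE vM21). Elane (ENSMUSG00000020125) covers bases 79886247 to 79888215 of chromosome 10, and Prtn3 (ENSMUSG00000057729) covers 79874476 to 79883174 on the same strand. Only 3072 bases separate them, and Cfd, a further granule protease gene, starts 2637 bases beyond Elane. Ctsg (ENSMUSG00000040314) covers 56099881 to 56102574 of chromosome 14, Mpo (ENSMUSG00000009350) covers 87793581 to 87804413 of chromosome 11 and Ms4a3 (ENSMUSG00000024681) covers 11629496 to 11640851 of chromosome 19. In their exons, Mpo shares 512 bases with the antisense gene Gm11505, which had 43 to 174 counts a library. Prtn3 shares 159 bases with Plppr3 on the opposite strand, which was at 221 to 341 CPM. Whether reads were counted by strand is not given in the sources used here. Reads of such partners cannot be told apart when strand is ignored.

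The 250 bases before the RefSeq start of each gene (GRCm38.p6) are shown because the 5 transcripts moved together across libraries. Capitals mark 4 short motifs, searched on both strands: the Spi1 motif GAGGAA, the Myb motif AACNG, the Runx motif TGTGGT and the C/EBP motif TTNNGCAA.
Elane, chr10:79886062-79886311, plus strand: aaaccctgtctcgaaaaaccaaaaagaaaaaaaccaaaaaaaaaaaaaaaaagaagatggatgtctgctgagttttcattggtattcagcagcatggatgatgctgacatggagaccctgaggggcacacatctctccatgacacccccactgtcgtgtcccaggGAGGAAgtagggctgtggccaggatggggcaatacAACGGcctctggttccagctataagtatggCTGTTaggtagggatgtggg
Prtn3, chr10:79879417-79879666, plus strand: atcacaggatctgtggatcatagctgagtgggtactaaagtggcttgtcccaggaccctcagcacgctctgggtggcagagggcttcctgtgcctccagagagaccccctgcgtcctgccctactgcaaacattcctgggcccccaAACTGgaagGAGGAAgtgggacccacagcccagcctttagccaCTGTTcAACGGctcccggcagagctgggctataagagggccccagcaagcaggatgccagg
Ctsg, chr14:56102575-56102824, minus strand: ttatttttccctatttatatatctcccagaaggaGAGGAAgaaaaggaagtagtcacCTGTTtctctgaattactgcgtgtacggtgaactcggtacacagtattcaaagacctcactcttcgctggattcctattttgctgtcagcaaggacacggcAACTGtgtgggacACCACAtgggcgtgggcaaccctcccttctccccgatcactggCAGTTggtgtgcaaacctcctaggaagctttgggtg
Mpo, chr11:87793534-87793783, plus strand: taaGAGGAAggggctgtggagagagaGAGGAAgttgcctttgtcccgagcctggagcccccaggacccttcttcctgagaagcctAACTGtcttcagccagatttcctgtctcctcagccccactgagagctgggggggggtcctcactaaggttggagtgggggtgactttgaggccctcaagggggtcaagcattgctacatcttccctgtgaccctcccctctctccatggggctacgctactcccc
Ms4a3, chr19:11640852-11641101, minus strand: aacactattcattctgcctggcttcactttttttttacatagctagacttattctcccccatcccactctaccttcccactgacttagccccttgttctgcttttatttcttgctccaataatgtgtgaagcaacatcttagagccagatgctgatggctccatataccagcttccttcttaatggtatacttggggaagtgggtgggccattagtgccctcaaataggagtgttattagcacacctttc

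The Spi1 and Myb letters were both found in 4 of the 5 stretches, all but that of Ms4a3, which held none of the 4 motifs. In Elane, GAGGAA lay at bases 85 to 80 before the start and AACGG at bases 50 to 46. Its neighbour Prtn3 held GAGGAA at bases 95 to 90 and AACGG at bases 55 to 51. These letters are common. Of 32841 RefSeq promoter stretches of the same length, 23.3% held the Spi1 motif, 74.2% the Myb motif and 17.4% both. The Runx motif was found in Ctsg and in 14% of all stretches. The C/EBP motif was found in no member and in 9.57% of all stretches. A match in letters is a description and not a binding site. RefSeq and GENCODE place some starts differently, and the stretches of Mpo, Elane and Prtn3 lie partly or wholly inside the GENCODE gene.

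The members were among the most abundant transcripts of these cells. Together they took 1.38% to 2.41% of all counts in the 14 libraries, and 2.92% in the library left out. By counts, Mpo ranked between 3 and 5 among all genes in the 15 libraries, Elane between 7 and 21, Prtn3 between 6 and 23, Ctsg between 13 and 71 and Ms4a3 between 79 and 275. Levels were also compared per kilobase of exon, with all annotated exons of a gene merged. That length was 3424 bases for Mpo, 984 for Elane, 1732 for Prtn3, 1033 for Ctsg and 1884 for Ms4a3. The order was Elane (3560 ± 652 CPM per kb, SD, n = 14), Mpo (2731 ± 440), Prtn3 (1862 ± 530), Ctsg (1799 ± 404) and Ms4a3 (350 ± 87.8). On this scale Elane was above Mpo, Mpo above Prtn3 and Ctsg, and all 4 above Ms4a3 in 15 of 15 libraries. Prtn3 and Ctsg did not keep an order, with Prtn3 higher in 9 of 15. These orders depend on the exon length used. By counts, Mpo was above Elane and Prtn3 above Ctsg in every library.

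Mpo encodes the most abundant enzyme of the azurophil granule. It was at 7428, 10068 and 9916 normalised CPM in WT replicates 1 to 3, and at 10380, 6940, 10957 and 10687 in Puma-/- replicates 1 to 4. In G3 mTerc-/-Puma+/+ replicates 1 to 4 it was at 8743, 12213, 9865 and 8869 CPM. The double-labelled libraries were at 7632, 8065 and 9152 CPM in replicates 1, 3 and 4, and at 13024 in replicate 2. The genotypes overlapped, with means of 9137 ± 1482 (SD, n = 3), 9741 ± 1882 (n = 4), 9922 ± 1607 (n = 4) and 8283 ± 783 (n = 3) CPM in the order given.

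Elane encodes neutrophil elastase, which cleaves bacterial proteins and extracellular matrix. Its level was 2677, 3775 and 3292 CPM in WT and 3534, 2183, 4309 and 4292 CPM in Puma-/-. G3 mTerc-/-Puma+/+ libraries were at 3249, 4065, 4038 and 3545 CPM. The lowest and the highest of the 14 libraries were both Puma-/- (replicates 2 and 3). In the double-labelled libraries, Elane was at 2667, 3503 and 3911 CPM, with replicate 2 at 5278. The means were 3248 ± 550, 3579 ± 998, 3724 ± 397 and 3360 ± 634 CPM.

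Prtn3 had the widest spread of the members, 2.96-fold between the lowest and the highest of the 14 libraries. It was at 2530, 3566 and 2993 CPM in WT and 2756, 1963, 3639 and 3145 CPM in Puma-/-. In G3 mTerc-/-Puma+/+ it was at 2771, 5805, 3458 and 2859 CPM. Replicate 2 of that genotype stood above all other libraries, and its 3 other replicates lay within the Puma-/- range. The double-labelled libraries were at 2392, 3293 and 3971 CPM, and replicate 2 was at 4835. The means were 3030 ± 519, 2876 ± 708, 3723 ± 1421 and 3219 ± 792 CPM.

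Ctsg encodes cathepsin G, a protease with antibacterial activity. It was at 1351, 2008 and 1741 CPM in WT and 1765, 1374, 2127 and 1957 CPM in Puma-/-. It was at 1552, 2828, 2012 and 1762 CPM in G3 mTerc-/-Puma+/+. Again replicate 2 of the latter was the highest of the 14 libraries. In the double-labelled libraries, Ctsg was at 1243, 2022 and 2279 CPM, with replicate 2 at 3183. The lowest of all 15 values was in replicate 1 of this genotype and the highest in its replicate 2. The means were 1700 ± 330, 1806 ± 324, 2038 ± 559 and 1848 ± 540 CPM.

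Ms4a3 encodes a tetraspan protein of the MS4A family that marks granulocyte-monocyte progenitors. It was at 538, 671 and 613 CPM in WT and 566, 419, 787 and 694 CPM in Puma-/-. It was at 559, 1084, 738 and 660 CPM in G3 mTerc-/-Puma+/+ and at 445, 767 and 695 CPM in the double-labelled libraries, where replicate 2 was at 1131. All genotypes overlapped here too. The means were 607 ± 66.8, 617 ± 160, 760 ± 228 and 636 ± 169 CPM.

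**Figure D1:**
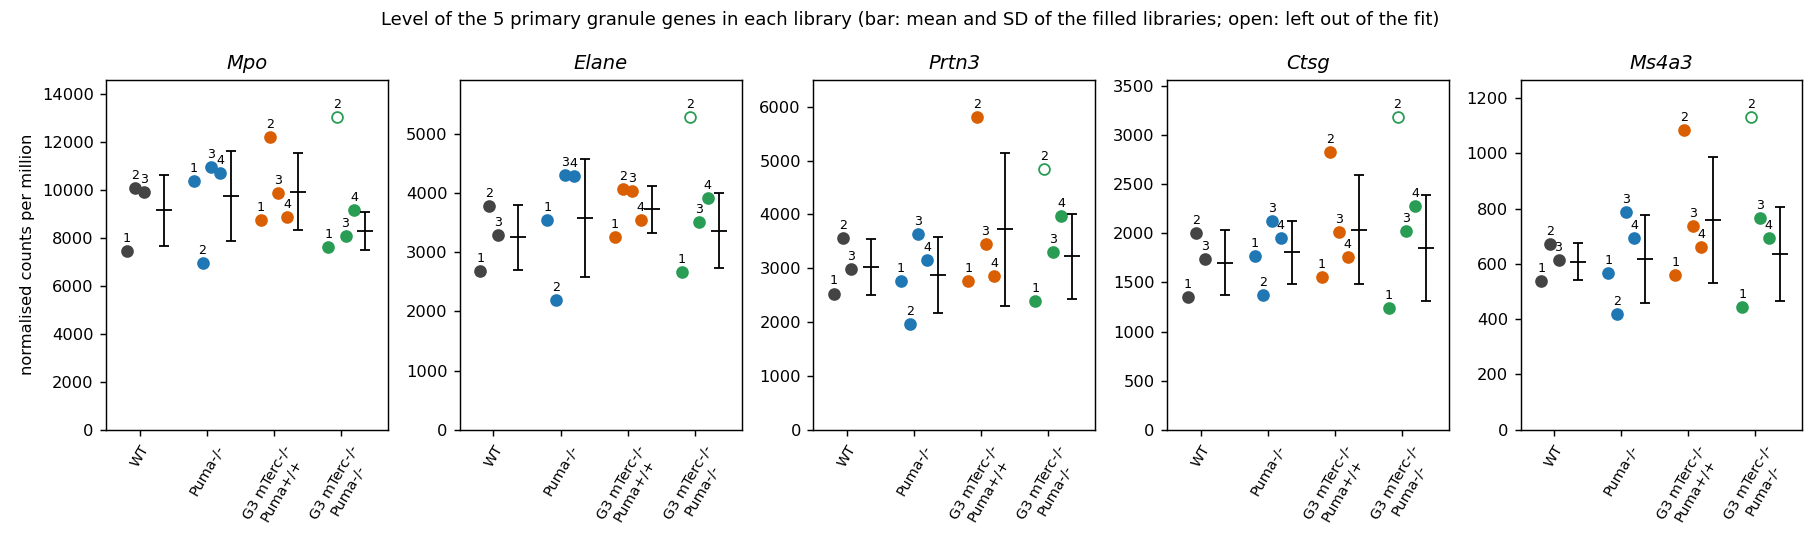
Normalised CPM of each gene (y axis, linear from 0, a scale per gene) in the 15 libraries by genotype, with replicate numbers beside the points and bars for the mean and SD of the filled points. The open point is the library left out of the fit. It was the highest of 15 for Mpo, Elane, Ctsg and Ms4a3, and the genotypes overlap for every gene.

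None of the 5 genes passed the threshold in any of the 7 comparisons, beside 0.0369% to 0.801% of all genes (edgeR's quasi-likelihood test, Benjamini-Hochberg adjustment over 18983 genes). Of 35 tests, 0 passed an adjusted p of 0.05 and 0 had an unadjusted p under 0.05, the lowest adjusted p being 0.475. Between pairs of genotypes the fitted folds lay between 0.835 and 1.29, and their 95% confidence intervals reached from 0.575 to 1.89. The intervals were narrowest for Mpo and widest for Prtn3. DESeq2 and limma-voom also called 0 of the 5 genes in each comparison. Exact permutation tests of log2 CPM (two-sided, 30 tests) gave a lowest p of 0.171, where the smallest p these designs allow is 0.0286 to 0.1, and no pair of genotypes was separated. In bulk RNA, fewer progenitors of a kind and less RNA in each of them cannot be told apart.

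Loss of PUMA alone was addressed by Puma-/- against WT. The log2 fold change was 0.09 for Mpo (95% interval -0.30 to 0.49), 0.14 for Elane (-0.32 to 0.60), -0.08 for Prtn3 (-0.66 to 0.51), 0.09 for Ctsg (-0.43 to 0.60) and 0.02 for Ms4a3 (-0.51 to 0.56). The members' median was 0.09 beside 0.0048 for all genes, and 0.079% of all genes were called. Without WT replicate 1, Mpo was at -0.05, Ctsg at -0.07 and Ms4a3 at -0.07. Prtn3 turned above 0 without WT replicate 2 or Puma-/- replicate 2. Ctsg turned below 0 without Puma-/- replicate 3, and Ms4a3 without Puma-/- replicate 3 or 4.

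Telomerase deficiency with PUMA present was addressed by G3 mTerc-/-Puma+/+ against WT, where all 5 fitted values lay above 0. They were 0.12 for Mpo (-0.27 to 0.51), 0.20 for Elane (-0.27 to 0.66), 0.30 for Prtn3 (-0.29 to 0.89), 0.26 for Ctsg (-0.25 to 0.78) and 0.32 for Ms4a3 (-0.21 to 0.86), a median of 0.26 beside 0.02 for all genes. The intervals held 0 for each gene, and 0.0369% of all genes were called. Without G3 mTerc-/-Puma+/+ replicate 2, the values were -0.0016 for Mpo, 0.15 for Elane, -0.0052 for Prtn3, 0.06 for Ctsg and 0.10 for Ms4a3. Without WT replicate 1, Mpo was at -0.03. Against Puma-/-, which shares these G3 mTerc-/-Puma+/+ libraries, the values were 0.03 for Mpo (-0.34 to 0.39), 0.06 for Elane (-0.37 to 0.48), 0.37 for Prtn3 (-0.17 to 0.92), 0.17 for Ctsg (-0.30 to 0.65) and 0.30 for Ms4a3 (-0.19 to 0.80). Prtn3 in this comparison had the lowest adjusted p of all, and without G3 mTerc-/-Puma+/+ replicate 2 its value was 0.08 (edgeR adjusted p = 0.929) and that of Ms4a3 was 0.09. In the same comparison 0.801% of all genes were called, 45 higher and 107 lower. With Xist as a covariate, the values of Mpo, Elane, Ctsg and Ms4a3 turned below 0, and so did Mpo and Ctsg without G3 mTerc-/-Puma+/+ replicate 2, and Mpo and Elane without Puma-/- replicate 2.

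The double-labelled libraries were compared with each other genotype. Against WT, where 0.0632% of all genes were called, the values ran from -0.14 for Mpo (-0.56 to 0.28) to 0.12 for Ctsg (-0.43 to 0.67). The 4 values above 0 all turned below it without WT replicate 1, or without double-labelled replicate 4, and Ms4a3 also without double-labelled replicate 3. With all 15 libraries all 5 lay above 0, at 0.05 for Mpo, 0.24 for Elane, 0.26 for Prtn3, 0.36 for Ctsg and 0.32 for Ms4a3. With Puma-/- as the control, where 0.306% were called, they ran from -0.23 for Mpo (-0.63 to 0.16) to 0.16 for Prtn3 (-0.42 to 0.75). Prtn3 was at -0.02 without double-labelled replicate 4. Elane turned above 0 without Puma-/- replicate 3 or 4 or double-labelled replicate 1. Ctsg and Ms4a3 turned below 0 without Puma-/- replicate 2 or double-labelled replicate 3 or 4. With all 15 libraries the values against Puma-/- were -0.04 for Mpo, 0.10 for Elane, 0.33 for Prtn3, 0.27 for Ctsg and 0.30 for Ms4a3. Compared with G3 mTerc-/-Puma+/+, with which the effect of PUMA loss in telomerase-deficient cells was addressed, all 5 lay below 0. They were -0.26 for Mpo (-0.65 to 0.13), -0.15 for Elane (-0.61 to 0.31), -0.21 for Prtn3 (-0.80 to 0.38), -0.14 for Ctsg (-0.66 to 0.37) and -0.26 for Ms4a3 (-0.79 to 0.28), and 0.0738% of all genes were called. With all 15 libraries the values were -0.07, 0.04, -0.04, 0.10 and -0.0039, so that the direction of Elane and Ctsg turned with 1 library. Without G3 mTerc-/-Puma+/+ replicate 2, Prtn3 was at 0.08 and Ctsg at 0.05, and Ctsg was at 0.08 without double-labelled replicate 1. The interaction of mTerc and Puma, which asks whether PUMA loss acts differently in telomerase-deficient cells, ran from -0.35 for Mpo (-0.91 to 0.20) to -0.13 for Prtn3 (-0.96 to 0.69), with 0.0527% of all genes called. Its value for Prtn3 turned above 0 without WT replicate 1, Puma-/- replicate 3, G3 mTerc-/-Puma+/+ replicate 2 or double-labelled replicate 1. Leaving out 1 library moved it to as near 0 as -0.01 for Ctsg and -0.05 for Ms4a3, and with all 15 libraries it was at -0.16 for Mpo, -0.10 for Elane, 0.03 for Prtn3, 0.0086 for Ctsg and -0.03 for Ms4a3. These comparisons share libraries and are not independent of each other.

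**Figure D2:**
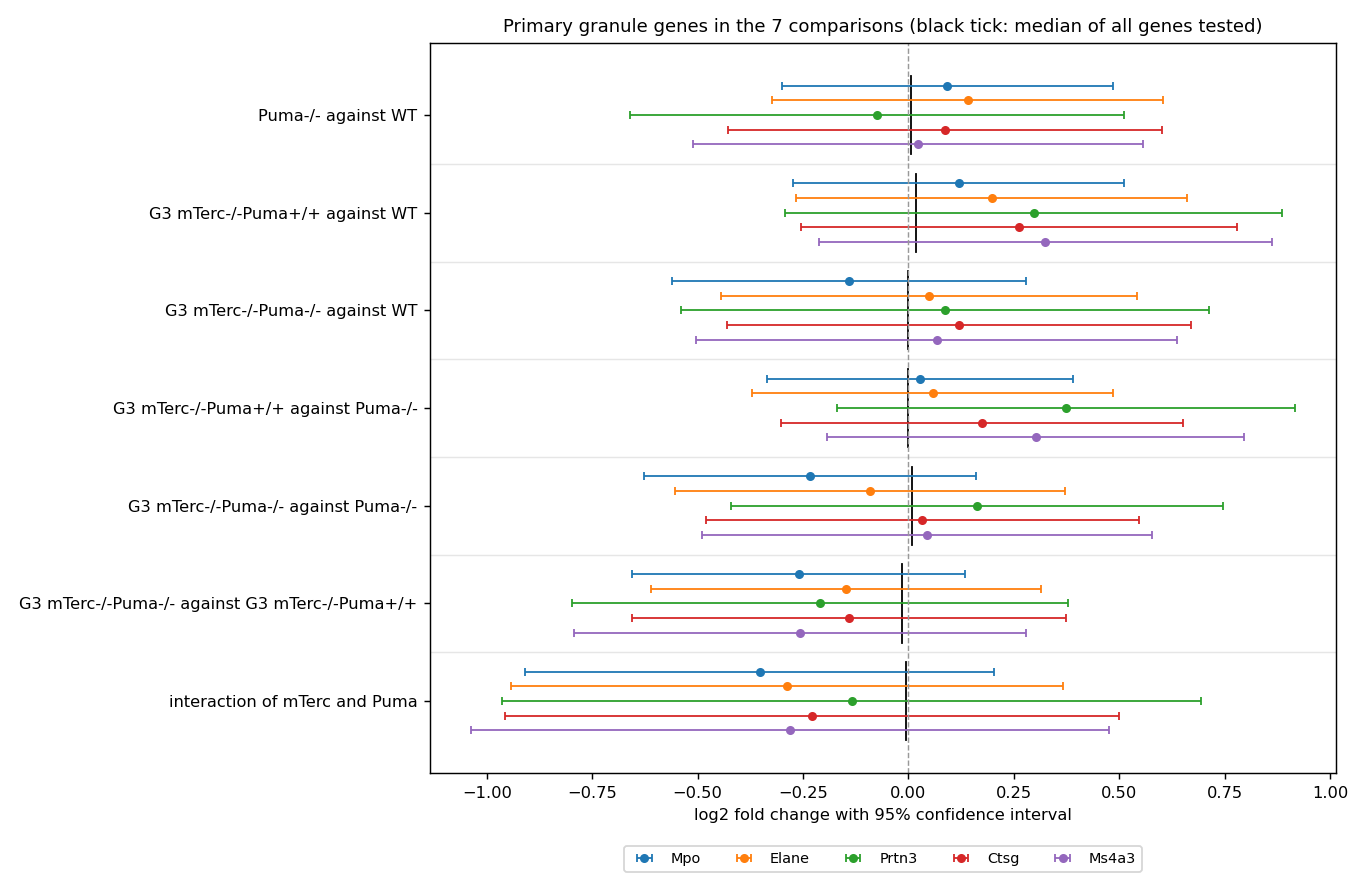
Log2 fold change (x axis) of each gene with its 95% confidence interval in the 7 comparisons (rows), from the fit of 14 libraries. Black ticks mark the median of all 18983 genes. Every interval holds 0.

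The 5 levels varied together from library to library. Among the 15 libraries, double-labelled replicate 2 ranked 1 or 2 for each gene, and G3 mTerc-/-Puma+/+ replicate 2 ranked between 1 and 4. At the other end, WT replicate 1 ranked 13 or 14 for each gene, and Puma-/- replicate 2 and double-labelled replicate 1 both ranked between 13 and 15. High and low libraries occurred within one genotype. Over the 14 libraries the log2 levels of each pair of members correlated with a Pearson r between 0.77 and 0.94 and a Spearman rho between 0.67 and 0.94. The highest permutation p of the 10 pairs, adjusted over them, was 0.00112 for r and 0.00992 for rho (100000 resamples). Within genotypes, r lay between 0.82 and 0.96. Over all 15 libraries it lay between 0.83 and 0.96. Without the 2 libraries farthest from the median, r lay between 0.54 (Mpo with Ms4a3) and 0.95 (Prtn3 with Ctsg). Prtn3, Ctsg and Ms4a3 were tied most closely, with r of 0.94 for each of their 3 pairs, although they lie on different chromosomes. Elane and its neighbour Prtn3 had an r of 0.80.

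**Figure D3:**
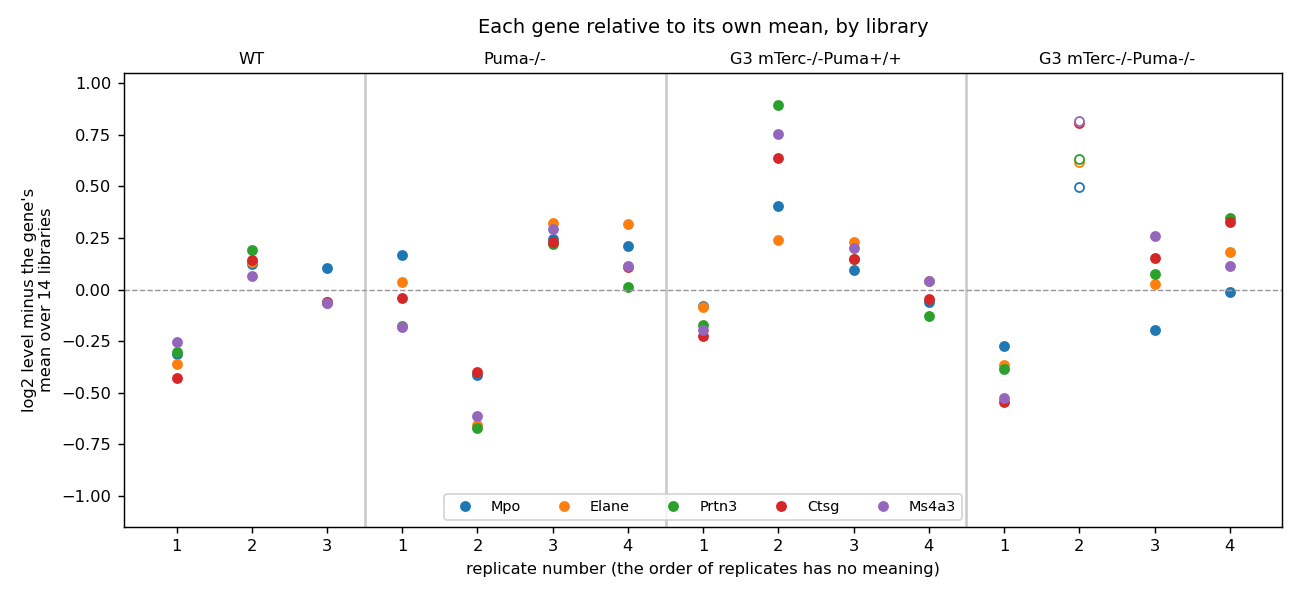
Log2 level of each gene minus its own mean over 14 libraries (y axis) by genotype and replicate number (x axis). Open points are the library left out of the fit. Libraries with all 5 genes below their means include WT replicate 1, Puma-/- replicate 2 and double-labelled replicate 1. Those with all 5 above include G3 mTerc-/-Puma+/+ replicate 2 and Puma-/- replicate 3.

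The balance between members was compared by the ratio of their counts in a library, which library scaling does not change. Of 60 exact permutation tests, 0 gave p under 0.05, and 2 had groups that did not overlap. Tests of the double-labelled libraries against WT could not pass, since their smallest possible p is 0.1. In 3 against 4 libraries, shuffled labels leave no overlap with a probability of 0.0571. Some of 60 tests are therefore set apart by chance, and the 2 cases are given as descriptions only. The count ratio of Elane to Prtn3 was 1.06, 1.06 and 1.10 in WT and 1.28, 1.11, 1.18 and 1.36 in Puma-/-. Every Puma-/- library lay above every WT library, with a log2 difference of 0.20 and an exact two-sided permutation p of 0.0571 (smallest possible 0.0286). The count ratio of Prtn3 to Ctsg was 1.87, 1.78 and 1.72 in WT and 1.56, 1.43, 1.71 and 1.61 in Puma-/-, all below WT, with a log2 difference of -0.18 and an exact permutation p of 0.0571. Both ratios hold Prtn3. In the other genotypes both ratios spanned the WT values.

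The genes whose levels followed the members most closely were sought among 9127 genes with a mean of at least 10 CPM, by the Pearson r with the mean standardised log2 level of the 5 over 14 libraries. These values are descriptions, since all genes share the libraries and their scaling. Prss57, a serine protease of azurophil granules, came first with r = 0.98. Neu1, a lysosomal sialidase (0.97), Kdelr2, a receptor that retrieves proteins to the endoplasmic reticulum (0.96), 1700020L24Rik (0.96), Gga2, an adaptor that sorts lysosomal proteins at the Golgi (0.95), Coasy (0.94), Mrpl44 (0.94) and Bcat2 (0.94) followed. The most opposite genes were Prkce, Mylip and Ankrd50, at -0.90 each. The median of all genes was 0.11.

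By role, the likeness differed within lists. Of 10 genes on a broad list for maturation and packing, the median r was 0.69. G6pc3 (0.91), whose loss causes neutropenia, Slc37a4 (0.88), Lamtor2 (0.88) and the serglycin gene Srgn (0.86) were high. The activating protease gene Ctsc was at 0.25. Lyst, a gene of granule size (-0.52), Ap3b1 (-0.46) and Ap3d1 (-0.19) lay below 0. The chaperone genes Calr and Canx, which with Srgn were the most abundant of this list, were at 0.78 and 0.61. The 8 inhibitor genes compared had a median of 0.50. Cst7 (0.92) and Serpinb1a (0.89), which encodes an inhibitor of elastase, proteinase 3 and cathepsin G, were high. Slpi, an elastase inhibitor, was at 0.47, and Serpinb6a (-0.15), Serpina3g (-0.46) and Serpina3f (-0.46) lay below 0. Of the other granule proteins, Nkg7, which is also a marker of NK cells, was at 0.89, Cd63 at 0.81 and Lyz2 at -0.03. The 14 transcription factors had a median of -0.01, below that of all genes, and spread widely. Gfi1 (0.85), Cebpa (0.81), Cebpe (0.78), Cebpd (0.76), Spi1 (0.58), Cebpb (0.41) and Myb (0.23) lay above 0. Irf8, a factor of the monocyte and dendritic path (-0.73), Rara (-0.65), Ets1 (-0.57), Runx1 (-0.49), Klf4 (-0.42), Cbfb (-0.36) and Cebpg (-0.25) lay below 0. The 3 most abundant progenitor genes, Plac8, Ly6c2 and Igfbp4, stood at 1591 ± 258, 1227 ± 217 and 603 ± 64.4 CPM over the 14 libraries, and the 21 genes of that list had a median r of 0.68. The 9 monocyte markers, led in level by F13a1, Mpeg1 and Ccr2, had a median of -0.50. Medians were similar or lower for T and NK cell markers (-0.63), lineage antigens of the depletion (-0.56), plasmacytoid dendritic markers (-0.53) and erythroid markers (-0.42). Among the lineage antigens, the pan-leukocyte gene Ptprc was at -0.83. Of the progenitor markers, Cd34 was at -0.59 and Kit at -0.23. The late granule genes had a median of 0.33. Slc37a4, G6pc3, Lamtor2, Lyst, Ctsc, the transcription factors other than Irf8, Myb and Spi1, Cd34 and Kit were named after their values were seen. So were Ap3b1, Ap3d1, Serpinb6a, Serpina3g and Serpina3f.

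**Figure D4:**
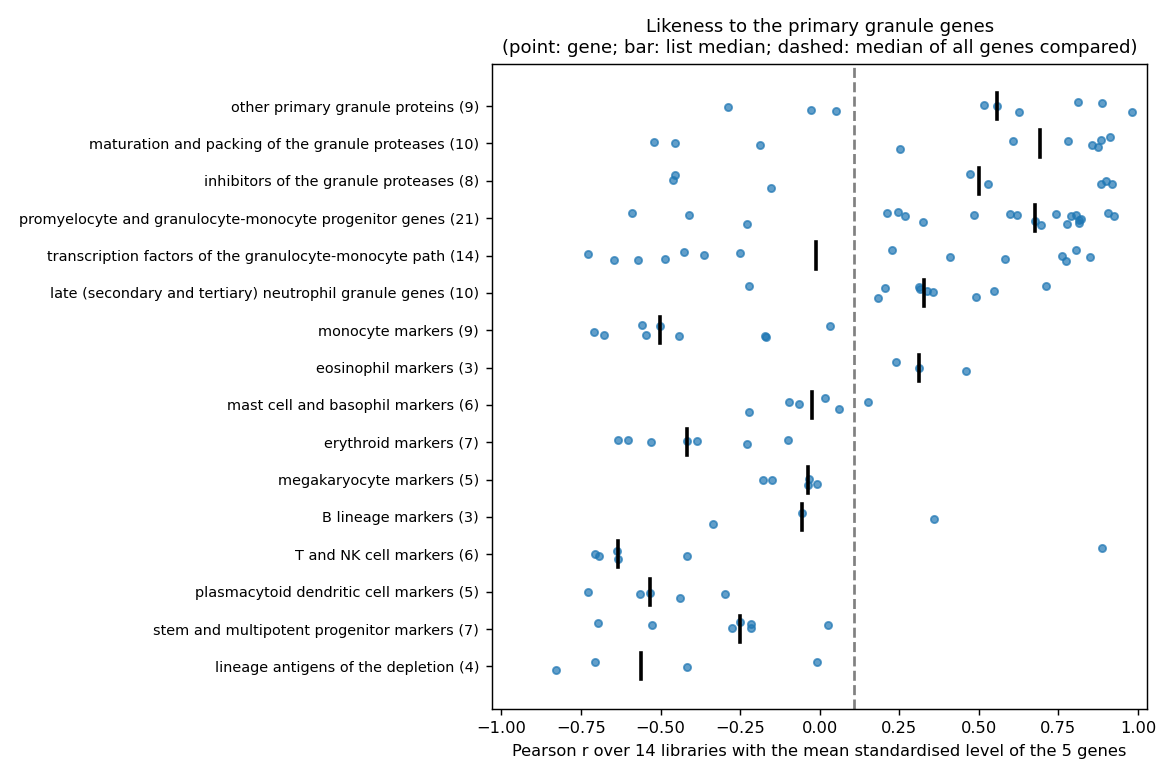
Pearson r over 14 libraries (x axis) of the genes of each list (rows, number of genes compared in brackets) with the mean standardised level of the 5 members. Points are genes, bars list medians and the dashed line the median of all 9127 genes, 0.11. Granule proteins, maturation genes and progenitor genes have medians of 0.56 to 0.69, transcription factors lie at -0.01, and the T and NK cell, lineage antigen, plasmacytoid dendritic, monocyte and erythroid lists lie to the left, at -0.63 to -0.42.

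The other genes of the programme were also tested by genotype. Of 12 other primary granule proteins, 10 maturation and packing genes, 21 progenitor genes, 14 transcription factors and 9 monocyte markers, 0 passed the adjusted threshold in any comparison, and neither did any of the 9 inhibitor genes tested of 12 listed. Serpina1a, Serpina1b and Serpinb1c fell below the count filter. The median log2 fold changes of these 6 lists lay between -0.21 and 0.33. The level of Prss57 averaged 107 ± 18.5 CPM for WT, 116 ± 27.4 for Puma-/-, 133 ± 30.2 for G3 mTerc-/-Puma+/+ and 117 ± 27.1 for the double-labelled libraries. Lyz2, the lysozyme gene of macrophages and granulocytes, stood at 1942 ± 787, 1264 ± 442, 1480 ± 352 and 2071 ± 541 CPM in the same order. Srgn stood at 697 ± 61.9, 665 ± 105, 807 ± 179 and 709 ± 110 CPM. None of these 3 genes passed the threshold in any comparison.

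The late granule genes, which mark the stage after the members are switched off, had higher fitted values in the double-labelled libraries. All 15 lay above 0 against WT, Puma-/- and G3 mTerc-/-Puma+/+, with medians of 1.56, 1.23 and 1.01 (all genes 9.8e-05, 0.0092 and -0.01). None passed the adjusted threshold, and 9, 8 and 5 had an unadjusted p under 0.05, beside 5.45%, 8.42% and 6.22% of all genes. DESeq2 called 0, 3 and 0 of them, and 91, 287 and 172 of all genes. Under the alternative settings, between 13 (without WT replicate 2) and 15 of them lay above 0 against WT. All 15 did so against Puma-/- and G3 mTerc-/-Puma+/+. Against the latter, those with an unadjusted edgeR p under 0.05 ran from 1 with the replicate block to 11 with the compared groups alone. Other lists of mature cells went both ways in the same 3 comparisons. All 7 lineage antigens of the depletion, of which Ly6g is on both lists, lay above 0, with medians of 0.63, 0.39 and 0.41. So did all 12 erythroid markers (0.74, 0.87 and 0.37). Medians of the B lineage, plasmacytoid dendritic and T and NK cell lists were above 0 too. All 8 megakaryocyte markers lay below 0 (medians -0.79, -1.93 and -0.59). Medians were also below 0 for mast cell and basophil markers (-0.33, -0.68 and -0.26) and eosinophil markers (-0.18, -0.71 and -0.05). The part of these lists in the values of the late granule genes was not tested. Ltf, the lactoferrin gene, averaged 30.1 ± 16.3 CPM for WT, 38.4 ± 31.8 for Puma-/-, 34.8 ± 16.0 for G3 mTerc-/-Puma+/+ and 124 ± 63.8 for the double-labelled libraries. S100a9, a calprotectin subunit gene, was at 406, 558, 615 and 1066 CPM in that order. S100a8 and Chil3 were the next most abundant of the list. Ltf was named after its values were seen. In the same comparisons the members' medians were 0.07, 0.03 and -0.21. The difference between both groups of genes was not tested.

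Markers of other cell types in the lineage-negative fraction passed the threshold in some of the same comparisons. Against Puma-/-, 5 of 8 megakaryocyte markers were called lower in G3 mTerc-/-Puma+/+ and 6 of 8 in the double-labelled libraries. Of all genes, 0.801% and 0.306% were called there, in either direction. Pf4 had log2 fold changes of -1.63 and -2.22 (SE 0.27 and 0.31), and the eosinophil receptor gene Il5ra fell in both (-1.11 and -1.78, SE 0.22 and 0.25). The calls of these cell type markers were not checked under the alternative settings. Xist was not balanced between G3 mTerc-/-Puma+/+ and Puma-/-. With it as a covariate, calls among all genes in that comparison went from 152 to 16. Of the B lineage markers, Blk and Blnk fell in G3 mTerc-/-Puma+/+ against Puma-/- (-1.84 and -1.10, SE 0.33 and 0.22). Blk, Blnk and Igll1 rose in the double-labelled libraries against G3 mTerc-/-Puma+/+, by 2.15 (SE 0.35), 1.79 (SE 0.23) and 2.95 (SE 0.45) on the log2 scale. Igll1 rose by 2.46 (SE 0.45) against Puma-/-, and Ly6d, of the plasmacytoid dendritic list, rose by 1.86 (SE 0.26) against G3 mTerc-/-Puma+/+. The mast cell and basophil markers (Prss34, Mcpt8 and Cpa3 the most abundant), erythroid (Tfrc, Car2, Car1), T and NK cell (Nkg7, Klrb1c, Cd3g), stem cell (Cd48, Flt3, Ly6a) and depleted lineage markers (Ptprc, Itgam, Klrb1c) held 0 genes past the threshold. The list medians of these 5 lay between -0.68 and 0.87, and 0 to 7 of their genes had an unadjusted p under 0.05 in a comparison. The summed level of the 8 megakaryocyte markers was 379 to 619 CPM in Puma-/- and 140 to 315 CPM in the other genotypes. Its part in the members' values was not tested.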

How the data were processed

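RNA-seq counts of 15 bulk libraries from lineage-negative marrow were analysed. The deposited values are raw read counts per Ensembl gene, which the authors made from stranded mRNA libraries by adapter trimming (Trimmomatic 0.38) and counting with STAR 2.5.2b on mm10. The strand setting and annotation release are not given in the sources used here. Symbols were matched with GENCODE mouse vM21, and 563 of 45706 identifiers had none. The members and gene lists were chosen with earlier results of these data known.

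Counts were filtered with filterByExpr (18983 genes kept) and scaled with TMM factors (0.926 to 1.07) in edgeR 4.0.16 (R 4.3.3). A quasi-likelihood model with the 4 genotypes (common biological coefficient of variation 0.251) gave the 6 pairwise comparisons and the interaction, with Benjamini-Hochberg adjustment at 0.05. The study used limma, and counts were tested here with edgeR. Normalised CPM are scaled by TMM, and a prior count of 2 was added before taking log2. The fit used 14 libraries, since 1 was not drawn in the study's heatmaps. Single values were compared with exact permutation tests. Totals of 102790519 to 158367059 counts mean that counting error is small for the members, and the spread between libraries sets the precision. Any 2 libraries of a genotype differed beyond sampling noise (chi-square per gene 41.8 to 772 over 21 pairs). Scripts were tested on simulated data. Promoters came from RefSeq (GRCm38.p6), where all 5 genes matched.

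Genes named are the 5 members, listed genes past the threshold or among the 3 most abundant of a list, the 8 genes most like the members and the 3 most opposite, and Bbc3, Terc and Xist. Genes named outside these rules are marked as such. Alternatives were all 15 libraries, other scaling, other filters, DESeq2 1.42.0, limma-voom (limma 3.58.1), a replicate block, the compared groups alone, each library left out, and Xist as a covariate, which was chosen after seeing the data. 1 listed marker gene is not reported here.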

Additional observations from a re-analysis of the deposited data

Results flagged for a closer look

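In 5 of 48 groups of 4 libraries tested (16 measures of the members' levels and count ratios in 3 genotypes), 1 library stood apart from the other 3 by Dixon's test of the gap to the nearest library over the range. Chance marks about 1 in 20 such groups, and ratios that share a gene are not independent. Mpo was at 6940 CPM in Puma-/- replicate 2, below the other 3 libraries of that genotype (gap over range 0.856).

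In G3 mTerc-/-Puma+/+ replicate 2 the ratios of Elane to Prtn3 and Ctsg were low. Elane itself was at 4065 CPM, the highest of its genotype, beside 5805 for Prtn3 and 2828 for Ctsg. The count ratio of Elane to Prtn3 was 0.700 (0.866) and that of Elane to Ctsg was 1.44 (0.868). Replicate 1 of the double-labelled libraries, counted here among all 4, stood apart from the others of its genotype in 2 ratios to Ctsg. The count ratio of Elane to Ctsg was 2.15 (0.848) and that of Mpo to Ctsg was 6.14 (0.952). The ratio of Elane to Ctsg was not unusual beside other genotypes, with Puma-/- replicate 4 at 2.19.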

How the results depend on the processing

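Under 25 alternative settings, 870 member fold changes were recomputed and 0 passed the threshold. The lowest adjusted p (edgeR) was 0.306, for Prtn3 in G3 mTerc-/-Puma+/+ against Puma-/- without Puma-/- replicate 3. In 58 cases the direction turned, and where no value is given for it the cause was not tested.

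Log2 fold changes that turned were as follows. With all 15 libraries, Mpo in the double-labelled libraries was at 0.049 against WT, Elane at 0.10 against Puma-/- and 0.042 against G3 mTerc-/-Puma+/+, Ctsg at 0.10 against the latter, and the interaction was at 0.034 for Prtn3 and 0.0086 for Ctsg. With the Xist covariate, an alternative added once the data had been seen, Prtn3 was at 0.081 in Puma-/- against WT. Mpo was at -0.11, Elane at -0.037, Ctsg at -0.072 and Ms4a3 at -0.0098 in G3 mTerc-/-Puma+/+ against Puma-/-, and Ctsg was at -0.11 and Ms4a3 at -0.15 in the double-labelled libraries against Puma-/-. Mpo in G3 mTerc-/-Puma+/+ against Puma-/- was at -0.015 with library size alone and at -0.022 with upper quartile factors. Ms4a3 in Puma-/- against WT was at -0.011 with limma-voom.

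With each library left out in turn, Puma-/- against WT ran from -0.050 to 0.22 for Mpo, -0.23 to 0.068 for Prtn3, -0.067 to 0.22 for Ctsg and -0.14 to 0.17 for Ms4a3. G3 mTerc-/-Puma+/+ against WT ran from -0.029 to 0.20 for Mpo and -0.0052 to 0.43 for Prtn3, and against Puma-/- from -0.12 to 0.089 for Mpo, -0.13 to 0.16 for Elane, 0.081 to 0.50 for Prtn3, -0.018 to 0.27 for Ctsg and 0.088 to 0.44 for Ms4a3. The double-labelled libraries against WT ran from -0.085 to 0.19 for Elane, -0.093 to 0.26 for Prtn3, -0.060 to 0.34 for Ctsg and -0.090 to 0.27 for Ms4a3. Against Puma-/- they ran from -0.27 to 0.051 for Elane, -0.017 to 0.34 for Prtn3, -0.15 to 0.25 for Ctsg and -0.11 to 0.25 for Ms4a3. Against G3 mTerc-/-Puma+/+ they ran from -0.39 to 0.082 for Prtn3 and -0.32 to 0.077 for Ctsg. The interaction ran from -0.31 to 0.17 for Prtn3, -0.41 to -0.010 for Ctsg and -0.44 to -0.055 for Ms4a3.

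The labels do not say whether replicate numbers pair the libraries. Correlations showed no sign of pairing, which does not exclude a shared batch. Deviations of 18 same-numbered pairs correlated between -0.25 and 0.18, with 3 over 0.1, beside 13 of 55 pairs with other numbers. With the replicate block, Elane in the double-labelled libraries against WT was at -0.049, and no other member turned. The number of calls among all genes was 43 with the block and 152 without it in G3 mTerc-/-Puma+/+ against Puma-/-, and 21 and 58 in the double-labelled libraries against Puma-/-.

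With all 15 libraries the mean of Mpo in the double-labelled libraries was 9468 CPM in place of 8283. The other 39 member levels, with all libraries or with library size alone, lay within 1 SD of the main level. For WT, Puma-/- and G3 mTerc-/-Puma+/+, the level with all libraries is the mean of the same values and could not move.

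Counts of calls among all genes moved more. Puma-/- against WT gave 15 calls, 11 with limma-voom and 136 with DESeq2. G3 mTerc-/-Puma+/+ against WT gave 7, 1 without WT replicate 1 and 46 with DESeq2. The double-labelled libraries against WT gave 12, 1 without WT replicate 3 and 91 with DESeq2. G3 mTerc-/-Puma+/+ against Puma-/- gave 152, 16 with Xist as a covariate, 24 with all 15 libraries and 996 with DESeq2. The double-labelled libraries against Puma-/- gave 58, 18 without their replicate 3 and 287 with DESeq2. Against G3 mTerc-/-Puma+/+ they gave 14, 2 with the compared groups alone and 172 with DESeq2. The interaction gave 10, 5 with limma-voom and 64 with DESeq2.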
